A study of Mus musculus with 6 samples.

Results

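The myeloid markers described here are 38 of the 24972 gene rows of the table, chosen by symbol from genes that mark resident macrophages, recruited monocytes, phagocytes in general and neutrophils. Of these, 7 were listed as markers of resident macrophages (Lyve1, Timd4, Folr2, Cd163, Mrc1, F13a1 and Cbr2). Another 5 were listed as markers of recruited monocytes (Ccr2, Ly6c2, Plac8, Chil3 and Fcgr1), although Fcgr1 is found on macrophages as well. RNA came from heart preparations of MX1gfp mice, a reporter strain with green fluorescent protein at the interferon-induced gene Mx1, which both groups carried. The vehicle group was 3 mice injected into the peritoneum with phosphate-buffered saline, and the doxorubicin group was 3 mice given 25 mg of doxorubicin per kg body weight. Hearts were taken 48 hours after the single injection, digested with collagenase without the atria, and left to settle under gravity, which enriches cardiomyocytes but does not sort them. Age and sex are not stated in the labels.

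The heart holds its own macrophages, many of which were seeded before birth and renew in place, sit along vessels and between myocytes, and clear dying cells and cell debris. After injury, blood monocytes that depend on the chemokine receptor CCR2 enter the tissue and can become macrophages, and neutrophils usually arrive before them. Doxorubicin is an anthracycline that traps topoisomerase II on DNA and causes strand breaks. It harms the heart as well as the bone marrow, where monocytes and neutrophils are made. A bulk library does not tell more cells of a type from more RNA per cell.

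The libraries themselves differed. Each doxorubicin library was shallower than each vehicle library, with about 3670000 to 6170000 estimated reads against 7710000 to 11400000, so depth and treatment cannot be told apart. The preparation was rich in cardiomyocyte transcripts: 10 such markers summed to 635497 to 758733 normalized counts in the vehicle libraries, and to 569897, 188678 and 167683 in doxorubicin replicates 1 to 3. Values below are the authors' normalized counts, and a difference is the mean log2(value + 1) of the doxorubicin libraries minus that of the vehicle libraries, with its standard error (SE) from limma.

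Across the 38 members, values were higher after doxorubicin in nearly every row. Of the 38, 34 had the mean of at least 10 needed for testing, and 8 of these reached it only through the doxorubicin libraries. At a Benjamini-Hochberg adjusted p under 0.05, limma called 0 members and 0 of all 12477 genes tested (0% higher and 0% lower). The smallest adjusted p of any gene, 0.0859, was shared by 1778 genes, 18 of them members, so no member is described as changed. An unadjusted p under 0.05 with a positive difference was found for 20 of the 26 members whose vehicle mean was at least 10, against 16% of all tested genes with such a vehicle mean. Of the same 26 members, 25 had a positive difference (48.3% of such genes) and 21 had all 3 doxorubicin values above all 3 vehicle values (18.5%). Their median difference was 1.54, against -0.02 for such genes in general.

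These calls depended on doxorubicin replicate 1. Without it limma called 22 of the 26 members with a vehicle mean of at least 10 higher and 0 lower, where 18.5% of all such genes were called higher and 22.4% lower (19.3% and 21.8% of all genes tested). Without replicate 3 it called 0 genes in either direction. Replicate 1 lay above every vehicle library in 30 of the 38 members and was the lowest doxorubicin library in 31. The share over all genes is not given for these counts, so they only describe the members. The 38 include the 4 members that were not tested and the 8 that reached the filter only through the doxorubicin libraries. The highest doxorubicin value was in replicate 1 for 3 members, in replicate 2 for 9 and in replicate 3 for 26. For the highest value, the shares were 37.6%, 29.8% and 32.7% of all tested genes. Among the genes whose doxorubicin values lay wholly above vehicle they were 3.54%, 29.9% and 66.6%. The map of all members shows this gradient, and shows that replicates 2 and 3 differ from each other by role.

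**Figure D1:**
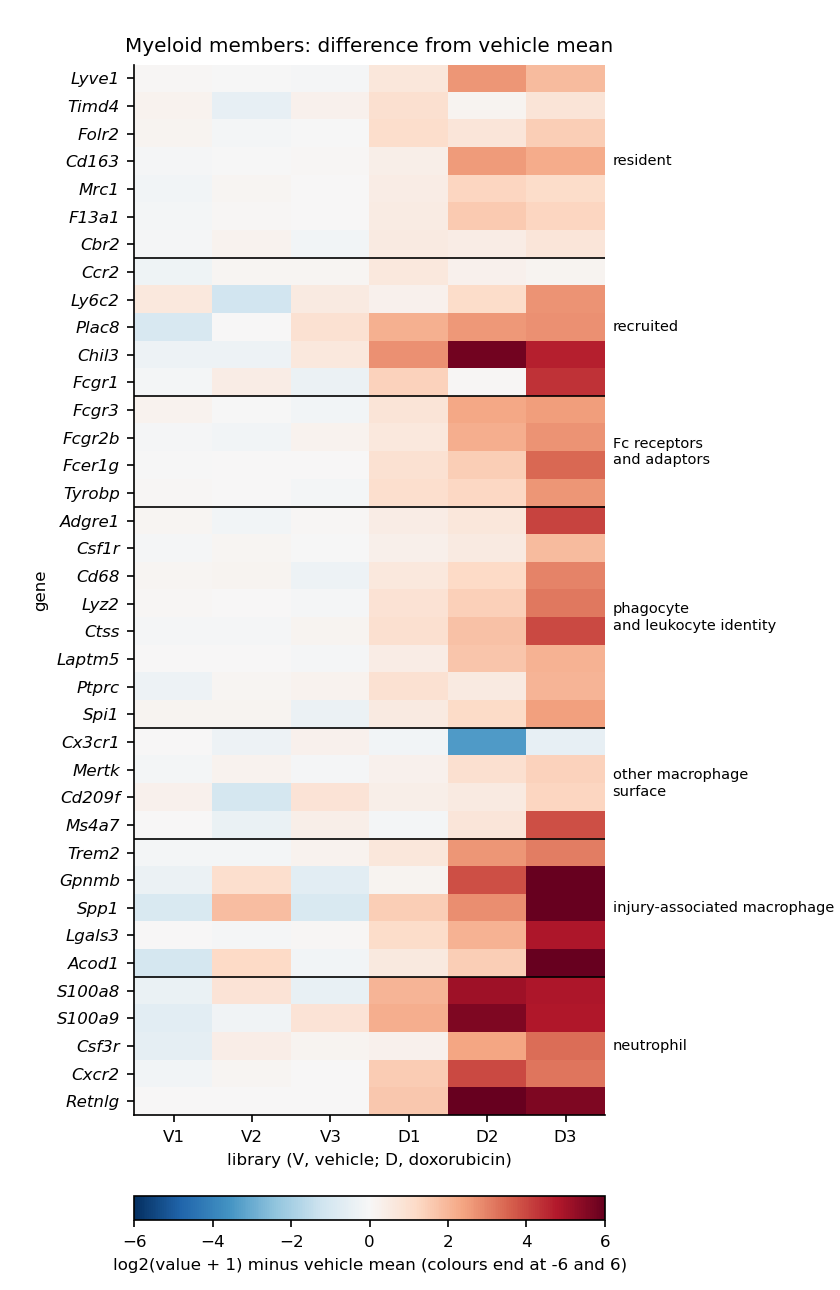
Difference of each of the 38 members from its vehicle mean, on the log2(value + 1) scale, in each library (columns V1 to V3, vehicle; D1 to D3, doxorubicin), with rows grouped by role. The vehicle columns are pale, 31 of the 38 rows have their lowest doxorubicin value in D1, Cx3cr1 is blue in D2 at -3.40, and Acod1 reaches 8.81 in D3.

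Resident macrophage members were higher after doxorubicin as a group, with differences from 0.57 to 1.74 and a median of 1.07, and in 6 of the 7 the groups did not overlap (19.2% of all genes tested did so in this direction). Lyve1 (chromosome 7, 110850607 to 110862953, GRCm38), a hyaluronan receptor of vessel-associated macrophages and of lymphatic endothelium, had normalized counts of 196, 187 and 182 under vehicle, and of 299.9, 1172 and 712 under doxorubicin, each in the order of replicates 1 to 3. The lowest doxorubicin library lay above every vehicle library, and replicate 2 was the highest. The means were 188 ± 6.95 and 728 ± 436 (SD, n = 3 in each group), a difference of 1.74 (SE 0.44, limma adjusted p 0.0859).

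Cd163 (chromosome 6, 124304636 to 124330529), the scavenger receptor for complexes of haemoglobin with haptoglobin, followed the same order of libraries. It held 128, 134 and 141 in vehicle and 169, 795 and 623 after doxorubicin. Its difference was 1.70 (SE 0.52, limma adjusted p 0.0859). Without doxorubicin replicate 1 it was 2.38 (adjusted p 0.000131), without replicate 2 it was 1.27 (0.17) and without replicate 3 it was 1.44 (0.208). Without a vehicle library it was 1.67 to 1.73 (0.191 to 0.256).

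Mrc1 and F13a1 showed smaller differences with the same high library. Mrc1 (chromosome 2, 14229414 to 14332023), the mannose receptor, held 282, 346 and 318 in vehicle and 427, 778 and 669.6 after doxorubicin, a difference of 0.94 (SE 0.23, adjusted p 0.0859). F13a1 (chromosome 13, 36867178 to 37050244), the A chain of coagulation factor XIII, held 411, 467 and 446 in vehicle and 625, 1309.8 and 1079 after doxorubicin. Its difference was 1.12 (SE 0.27, adjusted p 0.0859). In both genes replicate 2 was the highest and replicate 1 the lowest doxorubicin library, with no overlap between groups.

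Folr2, Cbr2 and Timd4 did not peak in replicate 2. Folr2 (chromosome 7, 101839988 to 101857190), the folate receptor of resident macrophages, held 73.7, 60.2 and 64.5 in vehicle and 136, 108 and 184 after doxorubicin (difference 1.07, SE 0.23, adjusted p 0.0859). Cbr2 (chromosome 11, 120729485 to 120732025), a carbonyl reductase, held 119.5, 144 and 111 in vehicle and 178, 170.0 and 209 after doxorubicin (0.57, SE 0.17, adjusted p 0.0859). Both had separate groups with doxorubicin libraries close to each other. Timd4 (chromosome 11, 46810786 to 46844333), a receptor for phosphatidylserine on dying cells, held 19.9, 11.6 and 20.4 in vehicle and 33.5, 19.2 and 29.0 after doxorubicin. Its groups overlapped and its difference of 0.63 (SE 0.37, adjusted p 0.244) was 0.38 without vehicle replicate 2.

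Recruited monocyte members were lower in abundance and less uniform, and only Ccr2 and Fcgr1 had a vehicle mean of at least 10. Ccr2 (chromosome 9, 124101918 to 124109140), the receptor that draws monocytes out of marrow and into tissue, held 15.6, 20.3 and 20.6 in vehicle and 29.2, 22.8 and 21.3 after doxorubicin. These correspond to about 25, 21 and 24 reads in vehicle and 28, 19 and 14 after doxorubicin. The groups did not overlap, but 21.3 and 20.6 lie closer than the 1.48 that 1 read is worth in doxorubicin replicate 3. The difference was 0.36 (SE 0.30, adjusted p 0.415), and replicate 1 was the highest.

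Fcgr1 (chromosome 3, 96282909 to 96293969), the high-affinity receptor for immunoglobulin G, is induced by interferon and is found on monocytes and macrophages. It held 12.7, 19.1 and 10.5 in vehicle and 36.8, 14.5 and 297 after doxorubicin. One library stood far above the rest, and replicate 2 fell inside the vehicle range. The difference of 1.93 (SE 0.96, adjusted p 0.187) became 0.72 without doxorubicin replicate 3 and 2.85 without replicate 2.

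Chil3 (chromosome 3, 106147554 to 106167564), a chitinase-like lectin made by monocytes and also by neutrophils, was nearly absent from the vehicle libraries at 0, 0 and 0.889. After doxorubicin it held 7.34, 67.5 and 30.7, or about 7 reads in replicate 1. Every doxorubicin library lay above every vehicle library, with a fitted difference of 4.41 (SE 0.93, adjusted p 0.0859) that depends on the pseudocount because the vehicle values are near 0. Its highest library, replicate 2, was also that of 4 of the 5 neutrophil members described below, all but Csf3r.

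Plac8 and Ly6c2 had means below 10 and were not tested. Plac8 (chromosome 5, 100551589 to 100572253), a cysteine-rich protein abundant in blood monocytes, held 0, 0.957 and 2.65 in vehicle and 7.32, 10.8 and 11.9 after doxorubicin, or at most about 9 reads. Ly6c2 (chromosome 15, 75108161 to 75112066), the surface protein that defines inflammatory monocytes, held 5.70, 0.957 and 5.26 in vehicle and 4.19, 8.4 and 26.9 after doxorubicin. The groups of Plac8 did not overlap and those of Ly6c2 did. Ly6c2 has a near-identical neighbour, Ly6c1, which endothelial cells express. Ly6c1 held 1079 to 1634 in vehicle and 2213, 4764 and 6834 after doxorubicin. How the authors' counting divided reads between such copies is not given in these sources, so the Ly6c2 values are uncertain.

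**Figure D2:**
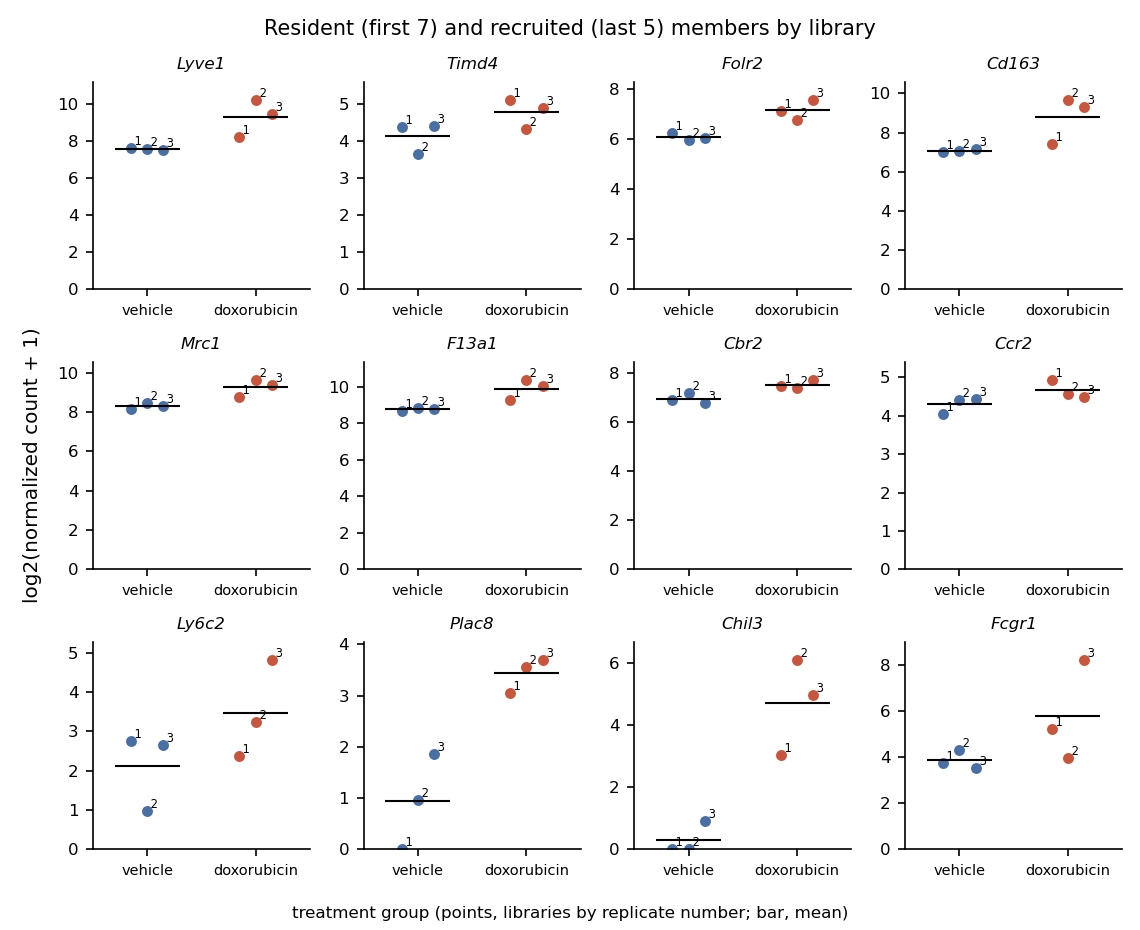
Values of the 7 resident and 5 recruited members in each library, as log2(normalized count + 1) on the vertical axis, with points numbered by replicate and bars at the group means. Resident members sit well above 0 in every library, whereas Plac8 and Chil3 start near 0 in vehicle and Fcgr1 is set apart by doxorubicin replicate 3 alone.

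The comparison of recruited with resident members turned on Chil3. The mean difference was 2.23 over the 3 tested recruited members and 1.11 over the 7 resident members, a gap of 1.12. Chil3, with a vehicle mean of 0.296, passed the filter for testing only through its doxorubicin values, and Plac8 and Ly6c2 did not pass it. All 7 resident members had a vehicle mean of at least 10, so this gap depends in part on the filter. With Chil3 left out, a choice made after its values were seen, the recruited mean was 1.14 and the gap 0.03, and with a pseudocount of 8 and all members the gap was 0.27. Counting all 5 and all 7 members in each library, the mean of the recruited genes relative to that of the resident genes, set to the vehicle mean, was 0.79, 0.63 and 1.57 in doxorubicin replicates 1 to 3 and -0.21, -0.14 and 0.35 in the vehicle libraries. Without Chil3 it was 0.45, -0.32 and 1.13, against -0.18, -0.11 and 0.29 in vehicle. Replicates 1 and 3 thus lay above the vehicle range and replicate 2 below it. Both versions count Plac8 and Ly6c2, which were not tested and had vehicle means of 1.2 and 3.97. Values so near 0 depend on the pseudocount. Plac8 lay 2.11 above its vehicle mean in replicate 1 on the log2 scale, so no order is drawn from this index. With 3 libraries a group the smallest two-sided p of an exact permutation test is 0.1, and none is given.

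Libraries also differ by the transcripts that tell the sexes apart, which the labels do not mention. Within the 3 libraries with Xist (1 vehicle, 2 doxorubicin) the median difference was 0.88 for the resident and 3.11 for the 3 tested recruited members. Within the 3 with Y-linked transcripts (2 vehicle, 1 doxorubicin) it was 1.31 and 0.34. All 7 resident members were higher in both classes, whereas the recruited median lay above the resident median in 1 class and below it in the other. Doxorubicin replicates 1 and 3 had Xist, and replicate 2 was the only doxorubicin library with Y-linked transcripts. Contrasts of replicate 2 with replicates 1 and 3, here and below, therefore cannot be told apart from this class.

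Members without a claim to origin, which mark phagocytes and leukocytes as such, were all higher after doxorubicin without overlap, in 8 of 8 genes (18.5% of all tested genes with a vehicle mean of at least 10). Their median difference was 1.5, or 0.88 without doxorubicin replicate 3. All 8 were highest in replicate 3. Adgre1 (chromosome 17, 57358581 to 57483529), which encodes the macrophage antigen F4/80, held 116, 95.1 and 115 in vehicle and 146, 173 and 1818 after doxorubicin. Replicates 1 and 2 were a little above vehicle and replicate 3 far above both. Its difference of 1.72 (SE 0.86, adjusted p 0.188) was 0.55 without replicate 3.

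Lyz2 (chromosome 10, 117277541 to 117282272), lysozyme, held 798, 772 and 728 in vehicle and 1382, 2083 and 6811 after doxorubicin, a difference of 1.82 (SE 0.52, adjusted p 0.0859), which was 1.15 without replicate 3. Its close copy Lyz1 held at most 43.3 in any library. Ctss (chromosome 3, 95526786 to 95556405), the lysosomal protease cathepsin S, held 89.9, 91.2 and 107 in vehicle and 188, 328 and 1524 after doxorubicin. Its difference of 2.24 (SE 0.67, adjusted p 0.0859) was 1.36 without replicate 3. In both genes the doxorubicin libraries were ordered from replicate 1, the lowest, to replicate 3.

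Csf1r (chromosome 18, 61105572 to 61131139), the receptor for the growth factor that keeps macrophages alive, held 386, 433 and 395 in vehicle and 502, 591 and 1497 after doxorubicin (0.92, SE 0.38, adjusted p 0.129). Spi1 (chromosome 2, 91082374 to 91115759), which encodes PU.1, the transcription factor that specifies myeloid cells, held 42.8, 43.5 and 30.3 in vehicle and 56.0, 85.6 and 219 after doxorubicin (1.39, SE 0.47, adjusted p 0.0918). Without replicate 3 these differences were 0.43 and 0.84. The lysosomal glycoprotein gene Cd68, the leukocyte lysosome gene Laptm5 and the common leukocyte antigen Ptprc had differences of 1.60, 1.38 and 1.17. Laptm5 was the most even of these between replicates 2 and 3, at 607 and 803 against 182 to 196 in vehicle.

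Set against these 8 genes, the resident members were level with them in replicate 1, above them in replicate 2 and well below them in replicate 3. The mean of the resident genes minus that of the 8, relative to vehicle, was 0.00 and 0.22 in replicates 1 and 2 and -1.48 in replicate 3, against -0.07 to 0.06 in the vehicle libraries. The resident members summed to 1867, 4353 and 3506 normalized counts in doxorubicin replicates 1 to 3, and the 8 genes to 2761, 4106 and 13436.

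**Figure D3:**
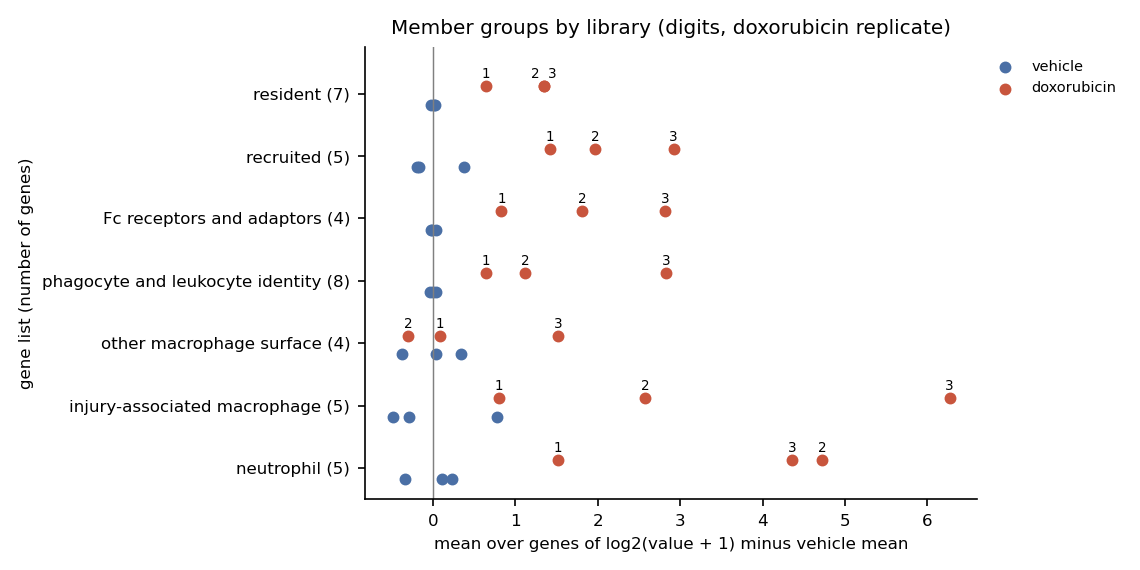
Mean over the genes of each member group of log2(value + 1) minus the vehicle mean (horizontal axis), with blue points for vehicle libraries and red points, numbered by replicate, for doxorubicin libraries. Resident members are equal in doxorubicin replicates 2 and 3 at 1.34 and 1.35, whereas injury-associated members reach 2.57 and 6.27.

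Fc receptors and their adaptors were higher without overlap in 4 of 4 genes (18.5% of all tested genes with a vehicle mean of at least 10), with differences from 1.64 to 1.94. Fcgr3 (chromosome 1, 171051169 to 171065915), the activating low-affinity receptor for immunoglobulin G, held 96.9, 82.3 and 73.6 in vehicle and 143, 425 and 487 after doxorubicin (1.87, SE 0.44, adjusted p 0.0859). Fcgr2b (chromosome 1, 170960558 to 170976071), its inhibitory counterpart, held 46.7, 44.1 and 57.4 in vehicle and 77.3, 225 and 323 after doxorubicin (1.84, SE 0.48, adjusted p 0.0859). The activating and the inhibitory receptor thus had differences of like size and the same order of libraries. The extracellular parts of Fcgr2b and Fcgr3 are similar in sequence, so reads may be shared.

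Fcer1g (chromosome 1, 171229572 to 171234349) and Tyrobp (chromosome 7, 30413782 to 30417582) encode adaptors that pass signals from activating receptors into the cell. Fcer1g held 44.2, 45.7 and 46.5 in vehicle and 86.8, 129 and 501 after doxorubicin (1.94, SE 0.57, adjusted p 0.0859), and 1.20 was its difference without replicate 3. Tyrobp held 44.7, 43.8 and 39.9 in vehicle and 87.2, 104 and 272 after doxorubicin (1.64, SE 0.40, adjusted p 0.0859). Both adaptors were above the narrow vehicle range in replicate 1 already and highest in replicate 3.

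Among the other macrophage surface genes, Cx3cr1 was the only tested member with a negative difference. Cx3cr1 (chromosome 9, 120048683 to 120068296), the receptor for the chemokine fractalkine, marks patrolling monocytes and part of the resident macrophages. It held 60.7, 49.1 and 72.8 in vehicle and 53.6, 4.80 and 42.6 after doxorubicin, and the value in replicate 2 rested on about 4 reads. The groups overlapped, and the difference of -1.35 (SE 0.78, adjusted p 0.244) was -0.32 without replicate 2. In that same library Lyve1, Cd163, Mrc1 and F13a1 were at their highest.

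Mertk (chromosome 2, 128698915 to 128803162), a receptor kinase for the engulfment of dying cells, held 90.1, 113 and 92.6 in vehicle and 117, 192 and 256 after doxorubicin (0.87, SE 0.28, adjusted p 0.0884). Its groups did not overlap, unlike those of the remaining genes of this group. Ms4a7, a membrane protein of macrophages, held 16.6, 12.4 and 21.3 in vehicle and 15, 27.4 and 253 after doxorubicin, and its difference of 1.48 was 0.29 without replicate 3. Cd209f, a lectin gene, had a mean below 10 and was not tested, at 0.953 to 6.11 in vehicle and 4.20 to 9.01 after doxorubicin.

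Members of the state that macrophages take on in injured tissue were low in the vehicle libraries and very unequal after doxorubicin, and all 5 were highest in replicate 3. Acod1 (chromosome 14, 103047012 to 103056573), the enzyme that makes itaconate in stimulated macrophages, was the extreme case. It held 0, 3.86 and 0.88 in vehicle and 2.11, 4.80 and 938 after doxorubicin. In 5 of the 6 libraries it rested on at most about 4 reads, and without replicate 3 its difference of 3.62 (SE 2.03, adjusted p 0.228) was 1.02.

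Spp1 (chromosome 5, 104435111 to 104441053), the secreted matrix protein osteopontin, held 0, 5.80 and 0 in vehicle and 4.22, 12.1 and 333 after doxorubicin. Gpnmb (chromosome 6, 49036518 to 49058182), a glycoprotein of lysosome-rich macrophages, held 7.65, 21.1 and 6.15 in vehicle and 11.6, 160.0 and 1584 after doxorubicin. For both, replicate 1 lay inside the vehicle range, so the groups overlapped. The differences were 3.90 for Spp1 (SE 1.57, adjusted p 0.123) and 3.73 for Gpnmb (SE 1.52, adjusted p 0.126), and 2.12 and 2.02 without replicate 3.

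Lgals3 and Trem2 differed in every doxorubicin library. Lgals3 (chromosome 14, 47373860 to 47386167), galectin-3, held 15.3, 14.1 and 15.8 in vehicle and 33.4, 67.2 and 462 after doxorubicin (2.68, SE 0.84, adjusted p 0.0864), or 1.59 without replicate 3. Trem2 (chromosome 17, 48346401 to 48352276), a lipid-sensing receptor that signals through Tyrobp, held 7.53, 7.6 and 9.58 in vehicle and 13.7, 57.2 and 76.3 after doxorubicin (2.14, SE 0.62, adjusted p 0.0859). The range among vehicle libraries was narrow in both genes.

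Neutrophil members were highest in doxorubicin replicate 2 in 4 of 5 genes, where the injury-associated genes were highest in replicate 3. The median difference of the 4 tested was 4.09, with 3.62 for the 5 injury-associated members, and the order of these medians turned without replicate 1 (5.08 and 5.13) and without replicate 2 (3.46 and 3.67). None of the 5 neutrophil members and only 2 of the 5 injury-associated members had a vehicle mean of at least 10. The others that were tested passed the filter through the doxorubicin libraries, so no ranking is drawn from these medians. The neutrophil median also includes the fitted value of Retnlg, which depends on the pseudocount because its vehicle values were 0. S100a8 (chromosome 3, 90669071 to 90670034) and S100a9 (chromosome 3, 90692630 to 90695721) encode the 2 chains of calprotectin, the main cytosolic protein of neutrophils, which monocytes make too. S100a8 held 1.92, 5.71 and 1.78 in vehicle and 14.5, 129.8 and 107 after doxorubicin (3.99, SE 0.85, adjusted p 0.0859). S100a9 held 2.54, 3.83 and 8.80 in vehicle and 24.0, 264 and 151 after doxorubicin (4.18, SE 0.85, adjusted p 0.0859). In both, all 3 doxorubicin libraries exceeded every vehicle library.

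Retnlg (chromosome 16, 48872608 to 48874498), a resistin-like peptide of neutrophils, was listed at 0 in all 3 vehicle libraries and held 2.09, 93.6 and 48.0 after doxorubicin, with about 2 reads in replicate 1. No fold is given against a group listed at 0. Cxcr2 (chromosome 1, 74153994 to 74161246), the chemokine receptor that brings neutrophils to injured tissue, held 0.642, 0.963 and 0.883 in vehicle, about 1 read each, and 4.19, 27.7 and 16 after doxorubicin. Its mean was below 10 and it was not tested. Csf3r (chromosome 4, 126023441 to 126044975), the receptor for granulocyte colony-stimulating factor, held 5.42, 11.2 and 9.31 in vehicle and 10.2, 46.6 and 94.9 after doxorubicin. Its groups overlapped through replicate 1, and its difference was 1.99 (SE 0.75, adjusted p 0.109), or 1.31 without replicate 3.

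**Figure D4:**
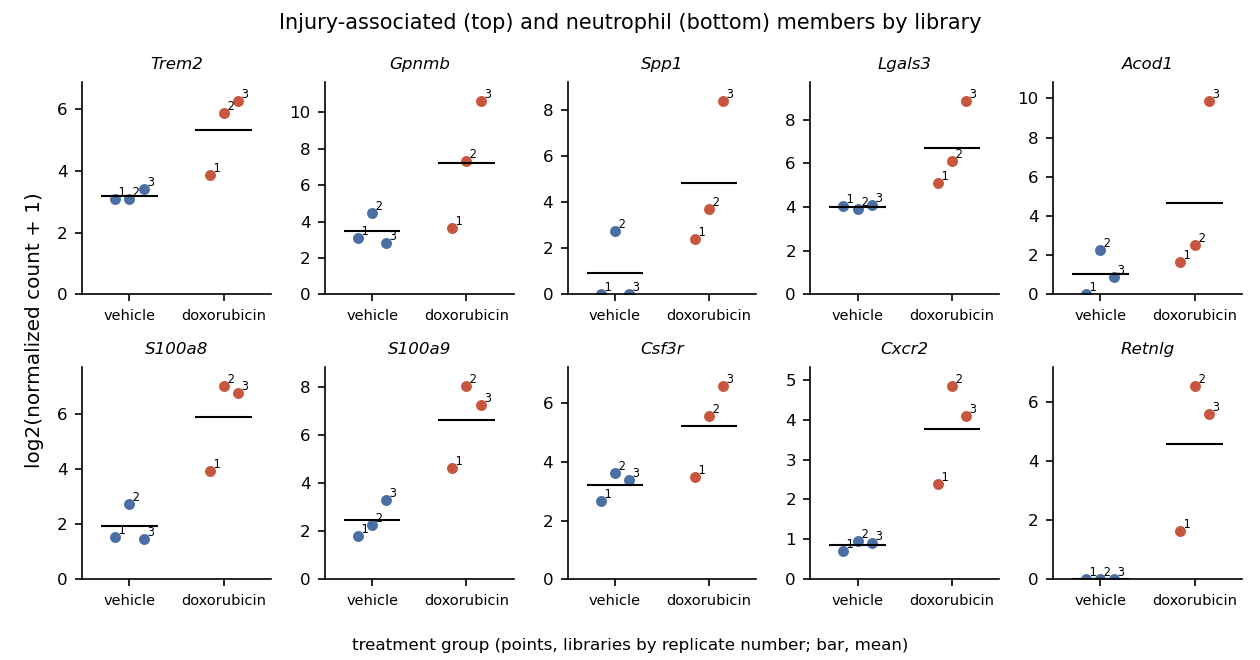
Values of the 5 injury-associated members (top) and 5 neutrophil members (bottom) in each library, as log2(normalized count + 1), with points numbered by replicate and bars at the group means. Acod1 is high in doxorubicin replicate 3 alone at 938 normalized counts, whereas S100a8, S100a9, Cxcr2 and Retnlg are highest in replicate 2.

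Promoter windows of the members, from RefSeq for GRCm38.p6 and reaching from 250 bases before to 50 after each annotated start, were searched on both strands for 3 short motifs. The first was GAGGAA, a core bound by PU.1, the product of Spi1. The second was the core of the interferon response element, GAAA followed after any 2 bases by GAAA. The third was TTCNNNGAA, the core bound by STAT factors. Windows were found for 33 of the 38 members. GAGGAA occurred in 18 of the 33 (54.5%), against 31.3% of all 27025 genes with a window. The interferon response core occurred in Ctss and Spp1 (6.06%, against 3.99% of all genes) and TTCNNNGAA in Chil3 and Fcgr1 (6.06%, against 9.55%). A match is a description of letters and not a measured site.

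The windows shown are those of Mrc1, which has more GAGGAA matches in 1 window than any other window of a resident member, and of the 4 members that hold one of the other motifs, for Spp1 that of its upstream start. They are written 5′ to 3′ on the strand of the gene, and capitals mark every match to any of the 3 motifs, on either strand. TTCCTC is GAGGAA read from the opposite strand, a run from TTTC to TTTC is the interferon response core read likewise, and no matches to different motifs overlapped in these windows.
Mrc1 (chr2:14229164-14229463, plus strand): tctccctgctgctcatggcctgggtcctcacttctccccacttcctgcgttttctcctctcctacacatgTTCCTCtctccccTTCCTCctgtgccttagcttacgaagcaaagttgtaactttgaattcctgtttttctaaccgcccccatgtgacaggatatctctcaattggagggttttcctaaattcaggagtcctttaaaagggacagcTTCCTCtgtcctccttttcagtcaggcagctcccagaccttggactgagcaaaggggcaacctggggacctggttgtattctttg
Fcgr1 (chr3:96293920-96294219, minus strand): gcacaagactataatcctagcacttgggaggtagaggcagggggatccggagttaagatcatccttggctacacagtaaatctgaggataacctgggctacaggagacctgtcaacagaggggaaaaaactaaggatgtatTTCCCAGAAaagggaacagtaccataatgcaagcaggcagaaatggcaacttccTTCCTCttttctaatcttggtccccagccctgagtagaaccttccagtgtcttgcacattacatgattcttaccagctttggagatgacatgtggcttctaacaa
Chil3 (chr3:106167515-106167814, minus strand): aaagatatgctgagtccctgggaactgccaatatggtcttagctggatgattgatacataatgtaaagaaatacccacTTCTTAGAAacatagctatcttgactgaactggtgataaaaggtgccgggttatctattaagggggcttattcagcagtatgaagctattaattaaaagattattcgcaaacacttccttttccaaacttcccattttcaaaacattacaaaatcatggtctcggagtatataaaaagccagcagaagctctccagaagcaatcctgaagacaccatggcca
Ctss (chr3:95526536-95526835, plus strand): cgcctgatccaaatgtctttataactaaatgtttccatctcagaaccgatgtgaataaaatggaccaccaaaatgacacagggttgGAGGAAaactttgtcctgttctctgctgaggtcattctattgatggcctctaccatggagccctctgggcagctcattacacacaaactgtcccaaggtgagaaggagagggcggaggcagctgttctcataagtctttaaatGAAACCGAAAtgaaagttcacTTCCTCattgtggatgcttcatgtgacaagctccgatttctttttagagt
Spp1 (chr5:104434861-104435160, plus strand): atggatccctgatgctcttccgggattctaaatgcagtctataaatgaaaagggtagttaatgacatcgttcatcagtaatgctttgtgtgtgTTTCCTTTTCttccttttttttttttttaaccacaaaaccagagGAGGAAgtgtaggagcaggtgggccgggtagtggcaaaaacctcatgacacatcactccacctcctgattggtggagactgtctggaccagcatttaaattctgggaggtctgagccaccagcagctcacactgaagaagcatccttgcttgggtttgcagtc
Fcgr1, Ctss and Spp1 each carry GAGGAA as well as a second motif. Chil3 has no GAGGAA in its window, and Mrc1 has 3 matches and no match to the other motifs.

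Other myeloid genes, 125 in 6 lists that share no gene with the members, gave values of the same direction. Of the 96 that were tested, 89 had a positive difference (49.6% of all genes) and 7 a negative one, and limma called 0 of them. Among the 84 with a vehicle mean of at least 10, 77 had a positive difference (48.3% of such genes), with a median of 1.01. In 47 the doxorubicin values lay wholly above vehicle (18.5% of such genes) and in 1 wholly below (23.2%). The remaining tested genes passed the filter only through the doxorubicin libraries, and the counts by list that follow include them. Other pan-myeloid genes, such as integrins, kinases and subunits of the phagocyte oxidase, were positive in 35 of 36 tested genes, with a median of 1.47, or 0.78 without doxorubicin replicate 3. All but 2 of its 38 genes were highest in doxorubicin replicate 3.

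Other resident macrophage genes had a median difference of 1.05, with 12 of 13 tested genes positive. The remaining lists were other monocyte genes (10 of 11 positive, median 1.73), transcription and growth factors (12 of 12, 0.91), other injury-associated genes (16 of 20, 0.72) and other neutrophil genes (4 of 4, 2.29). In the neutrophil list, Cxcr1, Elane, Mrgpra2b and Stfa3 were listed at 0 in all 6 libraries, and 16 of 20 genes were not tested.

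For 4 of the 6 lists, the gene with the smallest unadjusted p is named here. Cd9, a tetraspanin of injury-associated macrophages and of other cells, held 222, 238 and 216 in vehicle and 403, 715 and 737 after doxorubicin (1.40, SE 0.24, adjusted p 0.0859). Inpp5d, a phosphatase that restrains signalling in blood cells, held 99.9, 104 and 101 in vehicle and 149, 236 and 339 after doxorubicin (1.16, SE 0.28). In both genes the groups did not overlap and doxorubicin replicate 1 was the lowest of its group. The differences of Igf1, a growth factor that resident macrophages among other cells secrete, and of Hdc, the enzyme that makes histamine, were 0.90 and 1.69, also without overlap.

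Markers of other cells also differed between the groups, some higher and some lower, and their part in the results was not tested. Of 10 cardiomyocyte markers, 10 were lower, with a median difference of -1.54, and 7 did not overlap (22.6% of all genes in that direction). Endothelial markers were higher in 9 of 10 genes (median 0.81), summing to 17793 to 24916 in vehicle and 33981 to 47409 after doxorubicin. Fibroblast markers were higher in 9 of 10 (median 0.84), summing to 14493 to 17902 in vehicle and to 21144, 55831 and 44878 in doxorubicin replicates 1 to 3. Mural cell markers, of pericytes and smooth muscle, were higher in 3 of 8, with a median of -0.22 that was 0.03 without doxorubicin replicate 2.

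Markers of blood cells outside the myeloid line set doxorubicin replicate 1 apart. The erythroid list, in which Hbb-bs was listed at 0 in every library, summed to 9027 in replicate 1, to 249.8 and 421 in replicates 2 and 3, and to 1212 to 2105 in vehicle. B cell markers summed to 64.0 in replicate 1, to 5.96 and 3.00 in replicates 2 and 3, and to 11.3 to 43.0 in vehicle. T and NK cell markers summed to 107 in replicate 1, to 27.7 and 38.6 in replicates 2 and 3, and to 17.1 to 57.9 in vehicle. The neutrophil members thus had their highest values in the 2 libraries whose erythroid and B cell sums lay below the vehicle range.

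Markers of dendritic and mast cells showed no such split. Dendritic cell markers summed to 134 to 173 in vehicle and 161 to 228 after doxorubicin, nearly all of it from Zbtb46, which endothelial cells also express. Flt3, Xcr1 and Clec9a, named with Zbtb46 after their values were seen, were at or under 3.62 in each library. Mast cell and basophil markers summed to 88.8 to 113 in vehicle and 73.5 to 97.5 after doxorubicin. Although the atria were taken off, atrial markers summed to 1621 in doxorubicin replicate 1, above the vehicle range of 637 to 736, and to 514 and 801 in replicates 2 and 3.

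**Figure D5:**
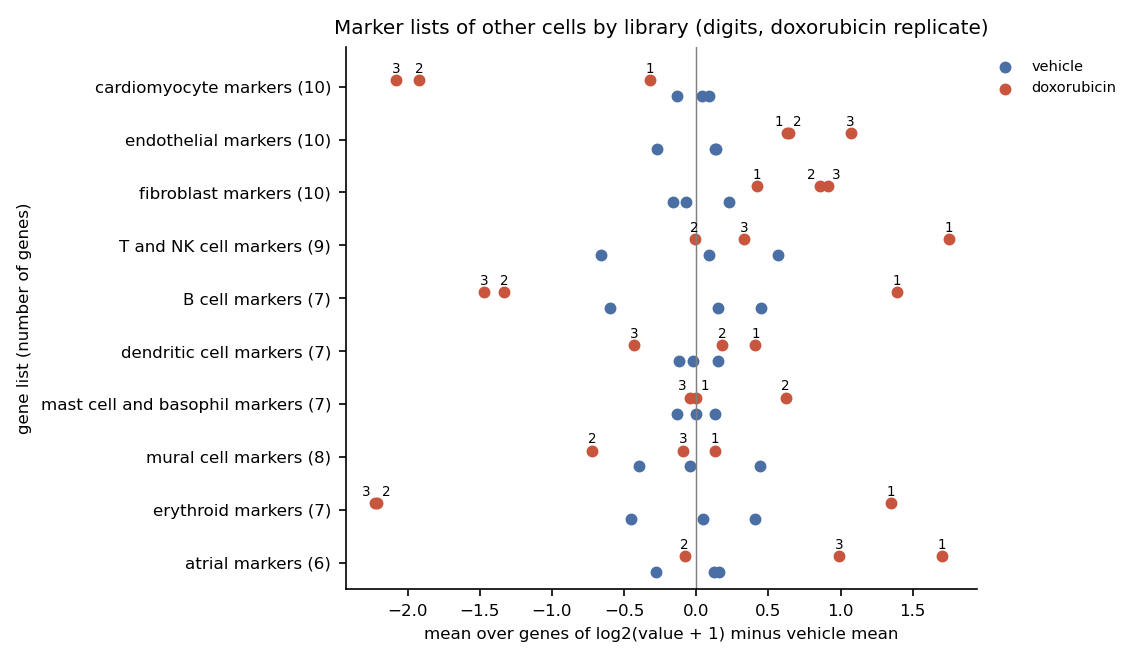
Mean over the genes of each marker list of log2(value + 1) minus the vehicle mean (horizontal axis), with blue points for vehicle libraries and red points, numbered by replicate, for doxorubicin libraries. Cardiomyocyte markers lie at -0.32, -1.92 and -2.08 in doxorubicin replicates 1 to 3, and erythroid, B cell, T and NK cell markers are highest in replicate 1.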

How the data were processed

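RNA from 3 vehicle and 3 doxorubicin mice was sequenced. Per the submitters' processing notes and the series' design text, STAR 2.6.1a, Salmon and BaseSpace applications were used with mm10 and RefSeq genes. The deposited values are a signal, normalized read counts per gene, never negative and not whole. How values were normalized or filtered, and whether strand was used, is not given in the sources used here. Estimated reads were the column total divided by the most common low value, and are approximate; 79.9% to 92.5% of low values lay within 0.1 of a whole multiple, too few to recover counts.

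Testing was limited to genes averaging 10 or more across the 6 libraries, and used differences in log2(value + 1) fitted with limma 3.58.1 (R 4.3.3, mean-dependent prior, two-sided, Benjamini-Hochberg over 12477 genes, threshold 0.05), after tests on simulated data. p-values measure the spread between the mice. Members, lists and alternatives were chosen with earlier results of these data known, so lists are described by counts and medians, without tests. All members are named; of other myeloid lists, the gene with the smallest unadjusted p, which for 2 lists is not reported here. The sample titles gave the groups and replicates. Same-numbered libraries did not deviate together (correlations -0.128, 0.0331 and -0.0928), so numbers were not treated as pairs. Coordinates count from 1 and are from RefSeq (GRCm38.p6), in which all 38 members were found. Alternatives were other pseudocounts (0.5 and 8), filters, scalings, weights, a covariate, a block, and leaving out each library.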

Additional observations from a re-analysis of the deposited data

How the results depend on the processing

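No tested member changed the sign of its difference under any alternative run. Leaving out each library in turn gave 0 to 2409 genes higher and 0 to 2718 lower, the highest counts without doxorubicin replicate 1 and 1 gene lower without replicate 2. Library weights, which gave replicate 1 a weight of 0.277, called 1954 of the 12477 genes tested higher and 2318 lower. Of the 26 members with a vehicle mean of at least 10, 19 were among the higher. The counts of 1954 and 2318 cover tested genes of any vehicle mean. No share over genes with a vehicle mean of at least 10 is given for this fit, so the 19 are not set against one. Cx3cr1 was among the lower (-2.15, adjusted p 0.026 with limma, and 0.0618 to 0.458 over the fits that left out a library). The other alternatives with all 6 libraries called 0 genes, with a smallest adjusted p from 0.064 to 0.115. Over the fits without a library, the median difference ran from 0.87 to 1.20 for resident members and from 0.72 (without doxorubicin replicate 3) to 2.85 (without replicate 2) for recruited members, which without doxorubicin replicate 3 lay below the resident 0.87, and the gap between their means from 0.82 to 1.33. That gap was 0.27 with a pseudocount of 8 and 0.03 with Chil3 left out, the latter chosen after the data were seen. Scaling to equal totals put the all-gene median at 0.29 and the resident median to 1.37. The number of members with a positive difference stayed at 33 of 34 in each of the fits that left out a library. With the replicate number as a replicate block, 0 genes were called (smallest adjusted p 0.115) and the medians stayed at 1.07 and 1.93. Depth limits Plac8, Ly6c2, Cd209f, Cxcr2 and Ccr2, which rest on at most 28 reads in any library.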

Other observations

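A further Fc receptor, Fcgr4, was examined as a relative of Fcgr3 and is described after its values were seen. Its normalized counts were 2.55, 2.88 and 0.88 under vehicle, and 9.42, 124 and 127 under doxorubicin (replicates 1 to 3). All 3 doxorubicin libraries lay above all 3 vehicle libraries, with replicates 2 and 3 level. Chil4, the close copy of Chil3, was listed at 0 in 5 libraries and at 1.48 in doxorubicin replicate 3.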
